A study of Mus musculus with 2 samples.

Results

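The genes described here are 10 mouse genes that bind, sense or move zinc: the metallothioneins Mt1 and Mt2, the metal-sensing transcription factor Mtf1, the zinc exporters Slc30a1, Slc30a4 and Slc30a5, and the zinc importers Slc39a6, Slc39a8, Slc39a10 and Slc39a14. They are 10 of 18193 genes named by a probe set that the annotation assigns to 1 gene only. All 24 probe sets naming only one of them were read. The genes were chosen by family, and selected on their signals in these same 2 arrays, which were known from earlier results. The values below therefore describe these genes and test nothing.

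The RNA was from primary calvarial osteoblasts, cells that form bone, of C57BL/6 mice aged 5 days, grown for 3 days with 10% serum. Both groups were starved of serum overnight and then given serum-free α-MEM culture medium for 6 h. The control medium held 1 mM phosphate at pH 7.2, and the phosphate medium 4 mM, by addition of a sodium phosphate solution buffered to the same pH, which also brought sodium. Each group was 1 array, so no replicate error could be measured and no p-value could be computed. The labels do not say how many animals or cultures each array represents. A control with added sodium alone was not analysed here.

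Metallothioneins are small proteins rich in cysteine that hold zinc and copper ions in the cytosol and buffer their free concentration. When free zinc increases, MTF1 binds metal response elements (MREs), short DNA motifs in the promoters of the metallothionein genes and of Slc30a1, and activates them. SLC30 proteins (ZnT) carry zinc out of the cytosol, either out of the cell or into vesicles and the secretory pathway, while SLC39 proteins (ZIP) carry zinc into the cytosol. In osteoblasts zinc is a cofactor of alkaline phosphatase, the enzyme that breaks down the mineralisation inhibitor pyrophosphate, and metallothionein genes also respond to glucocorticoids, oxidants and cytokines of the interleukin-6 type.

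Mt1 and Mt2 lie side by side on mouse chromosome 8. Their promoters are shown because both genes were several-fold higher in 4 mM phosphate and because the MRE defines the pathway. The sequences are from RefSeq (GRCm38.p6, plus strand, 5′ to 3′). They are the 250 bases before the start that the promoter table uses, chr8:94172368-94172617 for Mt2 and chr8:94178839-94179088 for Mt1. For Mt1 the RefSeq gene table begins the gene further upstream than this start. Capitals mark matches to the MRE core, searched as TGCACNC and TGCGCNC on both strands.
Mt2: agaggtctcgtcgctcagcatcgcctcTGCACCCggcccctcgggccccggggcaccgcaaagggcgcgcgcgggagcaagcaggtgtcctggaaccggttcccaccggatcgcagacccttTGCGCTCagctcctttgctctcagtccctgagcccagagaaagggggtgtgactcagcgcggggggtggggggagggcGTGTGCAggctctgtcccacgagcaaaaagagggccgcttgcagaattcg
Mt1: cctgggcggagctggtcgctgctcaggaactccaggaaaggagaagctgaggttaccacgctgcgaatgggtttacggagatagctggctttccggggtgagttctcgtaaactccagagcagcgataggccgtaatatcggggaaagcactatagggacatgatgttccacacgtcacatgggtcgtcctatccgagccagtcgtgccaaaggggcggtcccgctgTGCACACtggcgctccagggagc

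Further matches lay just past the same start, within its first 30 bases (chr8:94172618-94172647 for Mt2, chr8:94179089-94179118 for Mt1), and are shown for the same reason.
Mt2, first 30 bases: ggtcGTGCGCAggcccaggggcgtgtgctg
Mt1, first 30 bases: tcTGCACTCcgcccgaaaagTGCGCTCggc

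Over the whole 300-base window, Mt2 held 4 MRE cores and Mt1 held 3, with no overlap between matches. Of 32851 RefSeq windows of this length, 25.7% held at least 1, 7.11% at least 2, 1.97% at least 3 and 0.517% at least 4. In the 250 bases before the start alone, Mt2 held 3 cores and Mt1 held 1. Of all windows 1.26% held at least 3 there and 21.4% at least 1. Of the 10 genes, 8 had windows in the table, 10 windows in all, and Slc39a6 and Slc39a14 had none. Over the 300 bases Slc30a4 held 3 cores, Slc30a1 held 2 and Slc30a5 held 1. Mtf1 and Slc39a10 held 0, and the 2 windows of Slc39a8 held 0 and 1. Slc30a4 had as many cores as Mt1 in this window, with a log2 ratio of 0.61 against 2.16. The Mt1 count depends on the start used, since 2 of its cores lay past it. Bases more than 50 past the start were not searched, so these are not counts for a whole promoter. Any link between cores and ratios was not tested. The same windows were also searched for the motifs TTCNNNGAA and TGACNNNGC, held by 8.3% and 12.4% of all windows. Mt1 held neither, and Mt2 held 1 match to TGACNNNGC only. Slc30a1, Slc30a5 and 1 window of Slc39a8 also held TGACNNNGC, and 1 window of Slc39a10 held TTCNNNGAA. A match of so few letters is a description of the sequence and not a measured binding site.

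The deposited values are MAS5 signals on a linear scale, scaled by the authors to the same mean on both arrays. A floor was set at the median of both arrays, a signal of 21.5, and a gene was read from its brightest probe set. Measured genes, 12241 in number, are those past this floor in 1 or both conditions. Of these, 2.28% had a 2-fold or greater excess in 4 mM phosphate, 2.92% a 2-fold or greater deficit, and 44.1% a log2 ratio above 0. With 1 array a group, the only measure of error is how far a gene's probe sets differ from each other. The standard deviation (SD) in log2 ratio was 0.42 where the dimmer signal was under 100, 0.26 from 100 to 400 and 0.16 above 400. This SD leaves out differences between cultures.

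Each of the 10 genes exceeded the floor in both conditions, and 3 of them, Mt1, Mt2 and Slc39a14, had at least 2-fold more signal in 4 mM phosphate. None had 2-fold less. In 9 of the 10 the log2 ratio was above 0, the exception being Slc30a5, and with the poly-A spikes set equal as the common scale Mtf1, Slc30a1 and Slc39a8 were below 0 as well. Slc30a4, at 1.53-fold, was the gene nearest below 2-fold, and Slc39a14, at 2.47-fold, the nearest above it. Of the 10, 6 lay within 1.5-fold, against 9868 of the 12241 measured genes. The median log2 ratio was 0.52 against −0.06 over all measured genes. By probe set, 18 of the 24 were above the floor on both arrays. Of these, 5 were 2-fold or more brighter in phosphate and none 2-fold dimmer, against 2.47% and 2.43% of all such probe sets. A log2 ratio above 0 was found for 15 of the 18, against 46.7% of all. The other 6 were below the floor on both arrays and have no ratio. All 6 were brighter on the phosphate array, as were 56.3% of all probe sets below the floor.

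**Figure D1:**
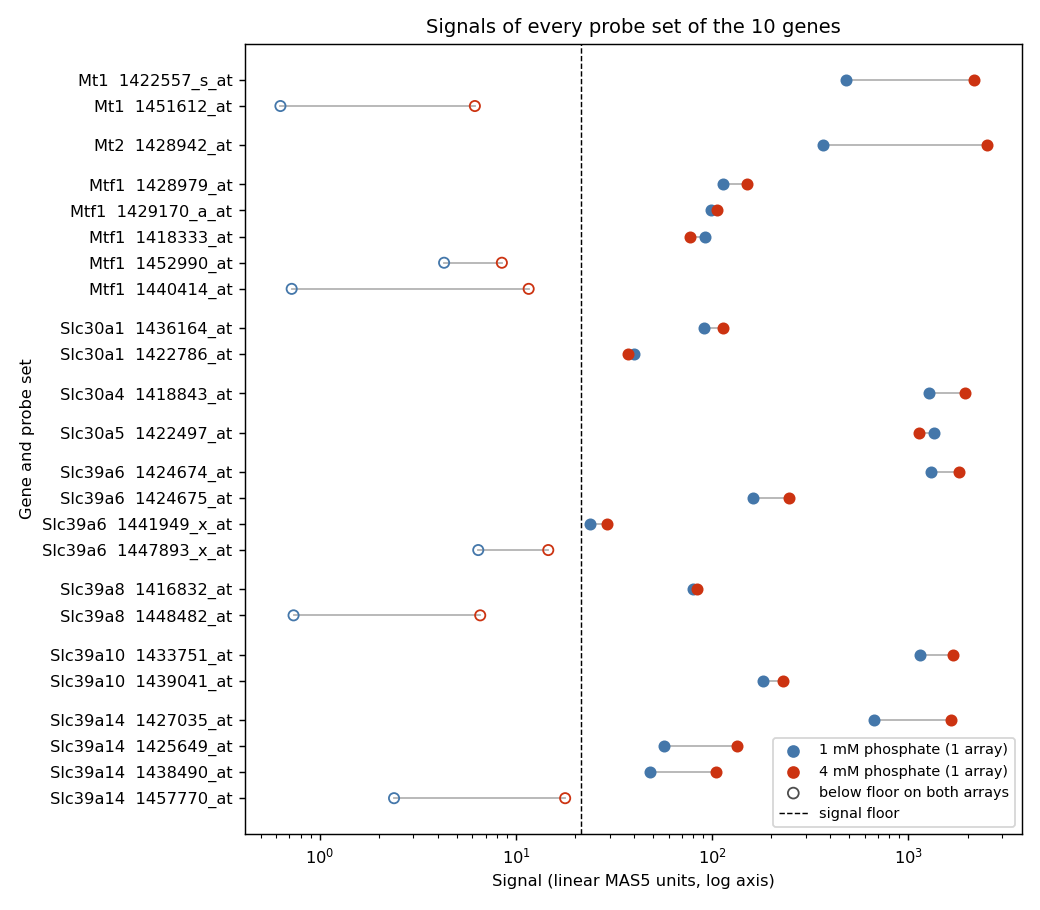
Signal of all 24 probe sets of the 10 genes on the control (1 mM) and phosphate (4 mM) arrays, on a log axis, 1 array per group. The dashed line is the floor of 21.5, and open circles mark the 6 probe sets below it on both arrays. The widest separations above the floor are those of Mt1, Mt2 and the 3 brighter probe sets of Slc39a14.

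Mt2 signal was 368 with 1 mM and 2517 with 4 mM phosphate, 6.85-fold higher. The log2 ratio of 2.78 was 10.8 times the SD between probe sets of a gene at that signal. In order of log2 ratio Mt2 stood 16th from the top of the 12241 measured genes, where 0.131% of genes were at least as high. It was read from its single probe set, so no second measurement of the gene exists on these arrays.

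Mt1 signal was 479.8 in the control and 2147 in phosphate, 4.47-fold higher. The log2 ratio of 2.16 was 13.4 times the SD at that signal, and Mt1 stood 48th from the top. Its probe set carries the manufacturer's suffix for probes that match several transcripts, so a share of Mt2 RNA in this signal cannot be told apart. The other Mt1 probe set was below the floor on both arrays, with signals of 0.63 and 6.17, and gives no ratio. The metallothionein ratios therefore rest on 1 probe set each.

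The other metallothionein genes of the cluster were dim. Mt3, known mainly from brain, was below the floor in the control at 4.64 and reached 30.2 in phosphate, a bound of at least 1.41-fold higher. Mt4, known from stratified epithelium, was below the floor on both arrays. Thus of the 4 clustered metallothionein genes, Mt1 and Mt2 alone were above the floor on both arrays.

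The genes around the cluster that were measured on both arrays had log2 ratios from −0.57 to 0.18. Of 5 protein-coding genes on each side in the RefSeq gene table, 6 were so measured and none of these was 2-fold different. Over all measured genes 2.28% were 2-fold higher and 2.92% lower, so this count is not particular to the locus. Nudt21, a pre-mRNA cleavage factor gene, had a log2 ratio of 0.18. Ogfod1 and Bbs2, next on that side, had −0.48 and −0.44. On the other side Nup93, a nuclear pore gene, had signals of 394 and 393, and Herpud1, a gene of protein quality control in the endoplasmic reticulum, had −0.28. Cpne2 was at −0.57, Nlrc5 was below the floor in the control with a bound of 0.62 in log2 ratio, and Slc12a3 was below the floor on both arrays.

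**Figure D2:**
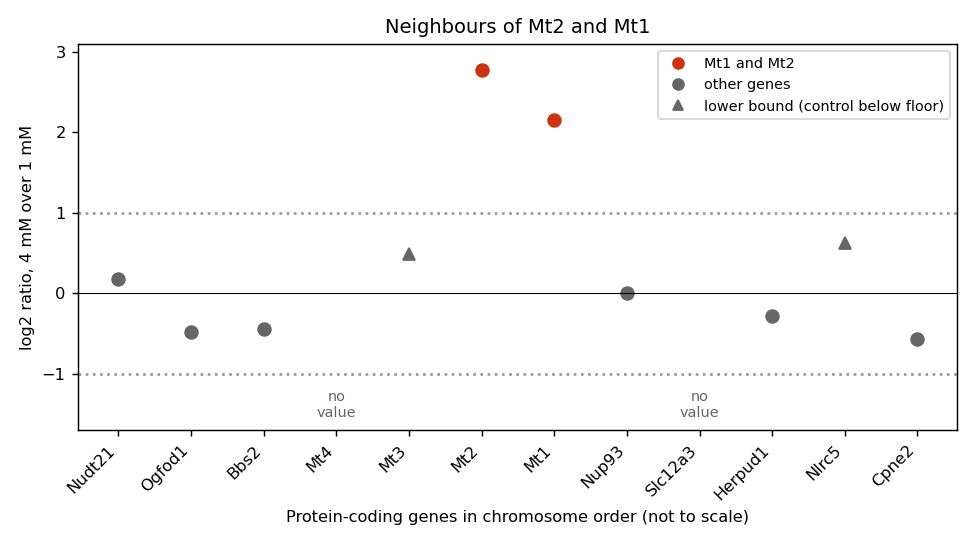
Log2 ratio of 4 mM over 1 mM phosphate for Mt2, Mt1 and 5 protein-coding neighbours on each side, in chromosome order and not to scale, with 1 array per group and no error bars. Mt2 (2.78) and Mt1 (2.16) are the 2 points above the dotted line at 1, triangles are lower bounds, and Mt4 and Slc12a3 have no value.

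Mtf1, which encodes the zinc-sensing activator of metallothionein genes, had no such ratio. Its 3 probe sets above the floor gave signals of 114 and 151, 98.4 and 106, and 91.9 and 77.2 in control and phosphate. The log2 ratios were 0.41, 0.11 and −0.25, with both signs among them. The range of 0.66 compares with a median range of 0.47 over 1928 genes with at least 3 such probe sets. No difference in Mtf1 mRNA was detectable at this spread, and these arrays do not measure the activity of the protein.

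Slc30a1 encodes the exporter of the plasma membrane that, like Mt1 and Mt2, is a known MTF1 target. Its signals were 90.9 in the control and 113 in phosphate on the brighter probe set, and 39.8 and 37.2 on the dimmer one. The log2 ratios of 0.31 and −0.10 were both smaller than the SD of 0.42 for dim probe sets. These dim probe sets had opposite signs, so no direction is given for Slc30a1, while Mt2 and Mt1 had log2 ratios of 2.78 and 2.16. The part of MTF1 in these ratios was not tested.

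Slc30a4 encodes a transporter that loads zinc into endosomes and secretory vesicles. Its signal was 1269.8 in the control and 1941 in phosphate, 1.53-fold higher. Of all measured genes, 7.25% reached 1.5-fold in this direction and 12.1% in the other. The log2 ratio of 0.61 was 3.8 times the SD at that signal and came from 1 probe set. It was 0.38 with the hybridisation spikes set equal and 0.15 with the poly-A spikes set equal, both under 1.5-fold.

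Slc30a5 works in the early secretory pathway as a heterodimer with Slc30a6 and supplies zinc to alkaline phosphatase. Slc30a5 went from 1348 in the control to 1138 in phosphate, a log2 ratio of −0.25. Slc30a6 had signals of 614 and 508 and a log2 ratio of −0.27. The 2 partners thus differed by similar, small amounts in the same direction, 1.5 and 1.7 times the SD. Alpl, the alkaline phosphatase gene, had a log2 ratio of −0.19, with signals of 3840.1 and 3373.

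Slc39a14 encodes a plasma membrane importer of zinc, iron and manganese. On its brightest probe set the control gave 666 and phosphate 1647, 2.47-fold higher. The dimmer ones went from 56.7 to 133 and from 48.4 to 105. The 3 log2 ratios were 1.31, 1.23 and 1.11, all past 2-fold with this floor and scale, and their range of 0.20 was below the median range of 0.47. For the dimmer probe sets this depended on the setting. They had 0.92 and 0.57 with the floor at the 65th percentile, 0.41 and 0.07 with the floor at 100, and 0.98 and 0.85 with the pseudocount, where the brightest kept 1.31, 1.31 and 1.28. With the poly-A spikes set equal all 3 were under 2-fold, at 0.84, 0.77 and 0.65, and with the hybridisation spikes set equal the dimmest was, at 0.88. Among the 1928 genes with at least 3 probe sets so measured, 0.622% had all of them past 2-fold in this direction and 0.104% in the other. The remaining probe set was below the floor on both arrays.

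Slc39a8, the closest relative of Slc39a14, encodes an importer with similar metals. Its signals were 80.2 and 83.8, a log2 ratio of 0.06 that was 0.2 times the SD at that signal. The second probe set was below the floor on both arrays. The ratios of this pair of related importers thus differed by more than the SD of either probe set, but the difference was not tested.

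Slc39a6 and Slc39a10 encode related importers that form a heteromer at the plasma membrane. Slc39a10 had signals of 1145 and 1689 on its brighter probe set and 182 and 230 on the dimmer one, with log2 ratios of 0.56 and 0.34. Slc39a6 had signals of 1306 and 1818, 162 and 246, and 23.8 and 29.1, with log2 ratios of 0.48, 0.60 and 0.29. All 5 probe sets were brighter in phosphate, but with the poly-A spikes set equal the dimmest of each gene turned to −0.15 (Slc39a6) and −0.12 (Slc39a10). The brightest probe set of each gene was 1.48-fold and 1.39-fold higher, 3.5 and 3.0 times the SD, and with the poly-A spikes set equal their log2 ratios were 0.10 and 0.01. The middle probe set of Slc39a6 was 1.52-fold higher, and no other of the 5 reached 1.5-fold.

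**Figure D3:**
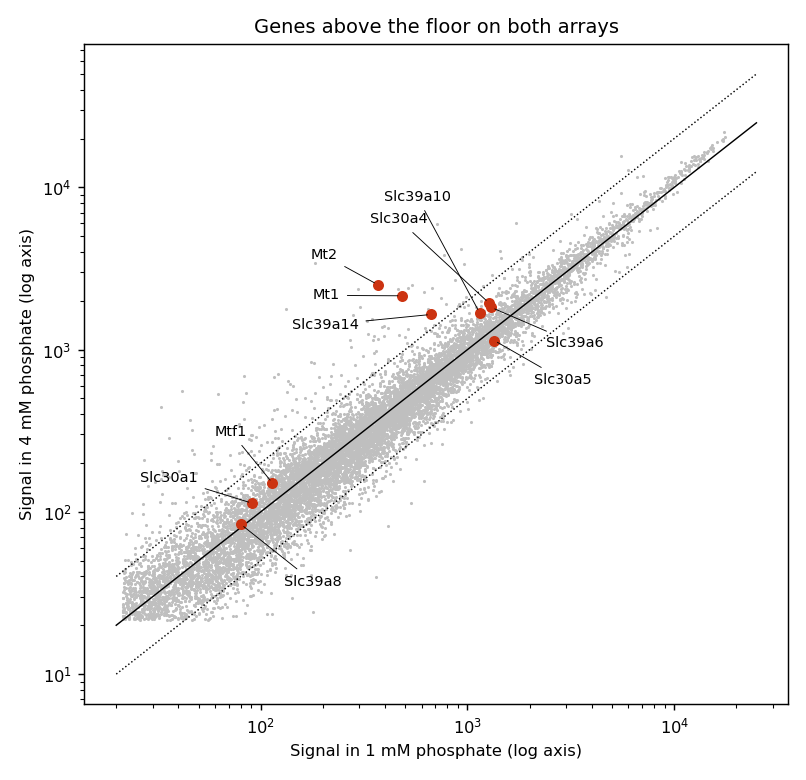
Signal in 4 mM against 1 mM phosphate for the 11184 genes past the floor in both conditions, 1 point per gene, both axes logarithmic, 1 array per group. The solid line marks equal signal and the dotted lines 2-fold. Mt2, Mt1 and Slc39a14 lie above the upper dotted line and the other 7 genes between the lines.

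Of the 19 other genes of the metallothionein, Slc30 and Slc39 families, 12 were above the floor on at least 1 array. None of the 12 reached 2-fold and 11 lay within 1.5-fold, counting Mt3 at its lower bound, with a median log2 ratio of 0.02. Over all 12241 measured genes 9868 lay within 1.5-fold. The importers Slc39a1 and Slc39a7, both bright, had log2 ratios of 0.15 and −0.25. Slc39a13, whose loss causes a connective tissue and skeletal disorder, had signals of 399.8 and 549 in control and phosphate, a log2 ratio of 0.46. Slc30a2 was the highest at 0.64, from dim signals of 27.8 and 43.3, and Slc30a6, given above, the lowest. The others, Slc30a3, Slc30a9, Slc39a3, Slc39a9 and Slc39a11, had log2 ratios from −0.24 to 0.17 on their brightest probe sets.

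Slc30a7, another transporter of the secretory pathway, gave opposite signs on its 2 probe sets. One went from 583 to 851, a log2 ratio of 0.54, and the other from 523 to 330.3, a log2 ratio of −0.66. These were 3.4 and 2.6 times the SD at their signal, so no direction is given for this gene. Zinc genes known from other tissues were below the floor on both arrays. These were the exporters Slc30a8, of pancreatic beta cells, and Slc30a10, and the importers Slc39a2, Slc39a4, Slc39a5 and Slc39a12.

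**Figure D4:**
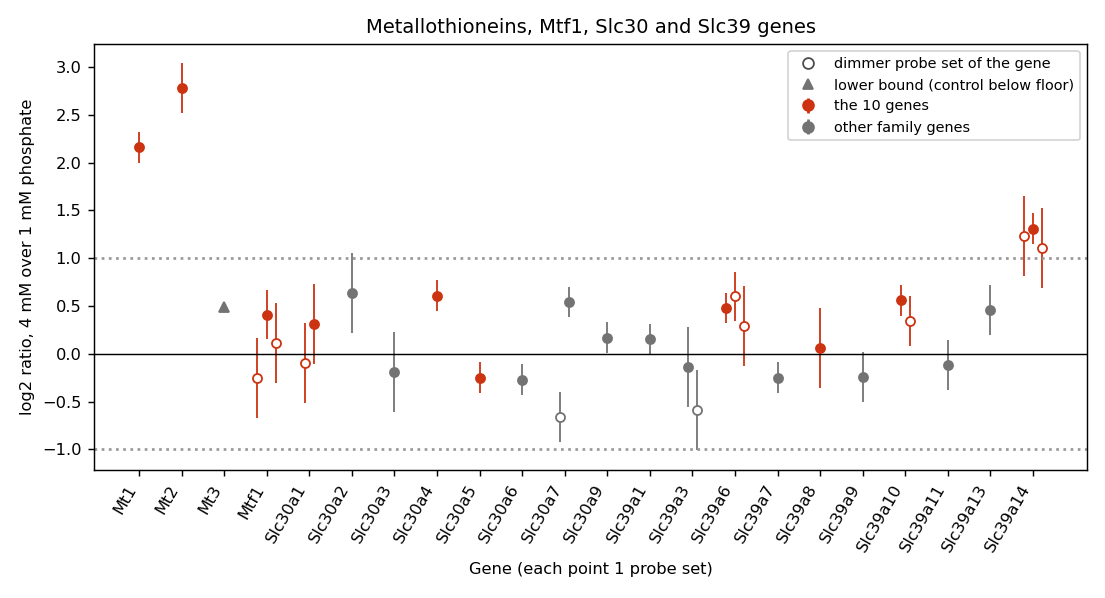
Log2 ratio of 4 mM over 1 mM phosphate for every probe set of the zinc gene families above the floor on at least 1 array. Filled circles are the brightest probe set of a gene, open circles dimmer ones, and bars the SD between probe sets of 1 gene at that signal, which leaves out differences between cultures. Mt1, Mt2 and all 3 probe sets of Slc39a14 lie above the dotted line at 1, and Slc30a7, Slc30a1 and Mtf1 have probe sets on both sides of 0.

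Other genes reported to respond to metals or to carry MTF1 sites, many of which also respond to oxidants, were more often higher than lower. Of 11 measured, 1 passed 2-fold upward and 1 downward, against 2.28% and 2.92% of all measured genes. The median log2 ratio was 0.48, and 8 of the 11 were above 0, against 44.1% of all. At 1.5-fold 5 were higher and 1 lower, against 7.25% and 12.1% of all. Srxn1, which repairs oxidised peroxiredoxins, was highest at 1.25, with 0.65 to 0.77 on its other probe sets. Hmox1, the heme-degrading enzyme, had signals of 261 and 508 and a log2 ratio of 0.96. Slc40a1, the iron exporter ferroportin, was the lowest, with signals of 923 and 417 and log2 ratios of −1.15 and −1.01 on its 2 probe sets, and the selenoprotein gene Selenoh was next at −0.44.

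Most copper and iron genes lay within 1.5-fold, as did most measured genes. Of 10 measured copper genes none was 2-fold different, where 2.28% of all measured genes were 2-fold higher and 2.92% lower. The median log2 ratio was −0.03. Values lay between −0.73 for Slc31a2, a copper transporter, and 0.48 for Sco2, a copper chaperone of cytochrome oxidase. Next to these stood Ccs, the copper chaperone of superoxide dismutase, at −0.61, and Sod1 at 0.26. Of 10 measured iron genes 1 was at least 2-fold higher, against the same 2.28% of all, with a median of 0.15. It was Lcn2, which binds iron-carrying siderophores and is also an inflammatory response gene, below the floor in the control and at least 3.06-fold higher. Slc25a37, the mitochondrial iron importer, followed at 0.86. Tfrc, the transferrin receptor, was the lowest at −0.51 on its brightest probe set, then Aco1, an iron regulatory protein, at −0.25.

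Of the responses known to include metallothioneins and Slc39a14, genes of the interleukin-6 type cytokines, their receptors and their response were mostly higher. In a list of 10 measured genes 9 passed 2-fold upward, against 2.28% of all measured genes, with a median log2 ratio of 1.74. The list holds the cytokines Il6, Lif and Il11 and the receptor genes Osmr and Il6st beside response genes. Il6 and Il11 were below the floor in the control, so they count as measured only through the phosphate array and their ratios are lower bounds. Socs3, among the 9, had signals of 459.6 and 2359.7. Of 8 glucocorticoid-responsive genes 2 passed 2-fold upward, Sgk1 and Dusp1, with a median log2 ratio of 0.43. Of the 8, 5 were above 0, against 44.1% of all measured genes. Klf9, Per1 and Fkbp5 were at 0.58, 0.48 and 0.39. Tsc22d3 was the lowest, with −0.85 on its brightest probe set and −0.88 and 0.17 on dimmer ones. Zbtb16 and Nr3c1 were also below 0, at −0.55 and −0.25 on their brightest probe sets. These lists were chosen with earlier results of these arrays known, and their part in the ratios of Mt1, Mt2 and Slc39a14 was not tested.

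The genes whose signals on the 2 arrays lay nearest to a member were found by Euclidean distance of log2 signals, over the 11184 genes past the floor in both conditions. Nearest to Mt1 were Socs3, Dusp1 and Ier3, at distances of 0.15, 0.20 and 0.28. Nearest to Mt2 were Inhba, Socs3 and Mt1, at 0.33, 0.34 and 0.45. Nearest to Slc39a14 were Tgfbi, Stat3 and Ifrd1, at 0.11, 0.22 and 0.25. Since the pattern has only 2 points, and signals of different probe sets are not levels on 1 scale, this likeness says little beyond a like signal and a like ratio.

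The cell type labels were checked by markers. Of the osteoblast markers 8 of 12 were measured, among them Col1a1, Col1a2, Sp7, Alpl and Ibsp, while Runx2, Bglap, Bglap2 and Spp1 had no probe set naming them alone. The 8 had summed signals of 73888 and 92501 in control and phosphate and a median log2 ratio of 0.16. More than any other of the 8, Dmp1, a marker of late osteoblasts and osteocytes, raised the sum, from 5505 to 15708, while Sp7, Pth1r and Alpl had log2 ratios of −0.39, −0.24 and −0.19. Macrophage and osteoclast markers were also present, 10 of 10 measured, with summed signals of 17027 and 15652 and a median log2 ratio of −0.55. Cartilage markers were present too, 5 of 5, at 10285 and 9521, while all 5 endothelial markers were below the floor on both arrays. Skeletal muscle markers had 2 of 4 measured, with Myod1 and Myog below the floor on both arrays. Acta1, skeletal actin, was 2.59-fold lower in phosphate (55.9 and 21.5, log2 ratio −1.37), with its phosphate signal at the floor. Ckm went the other way, from below the floor in the control to 24.8 in phosphate, a bound of 0.20 in log2 ratio. Of adipocyte markers 1 of 4 was measured, Adipoq at 409 and 288. In bulk RNA fewer cells of a type and less RNA per cell cannot be told apart, and the part of the other cell types in the zinc gene ratios was not tested.

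The choice of scale mattered for the small ratios and not for the sign of the large ones. Poly-A spikes, control RNAs put into the samples ahead of labelling, had a median log2 ratio of 0.46, and hybridisation spikes, put in afterwards, of 0.23. With the poly-A spikes set equal, the median of all measured genes moved from −0.06 to −0.51 and the counts of genes past 2-fold from 279 higher and 358 lower to 129 and 1561. With the hybridisation spikes set equal, the median was −0.28 and the counts 173 and 745. A floor at 100 gave 156 and 119 genes, and a pseudocount of the pooled median in place of a floor 218 and 172. On the poly-A scale Mt2 and Mt1 had log2 ratios of 2.31 and 1.70, and Slc39a14 fell short of 2-fold at 0.84. On that scale Mtf1, Slc30a1 and Slc39a8 turned to −0.06, −0.15 and −0.40, and Slc39a8 was also below 0, at −0.17, on the hybridisation spike scale.

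**Figure D5:**
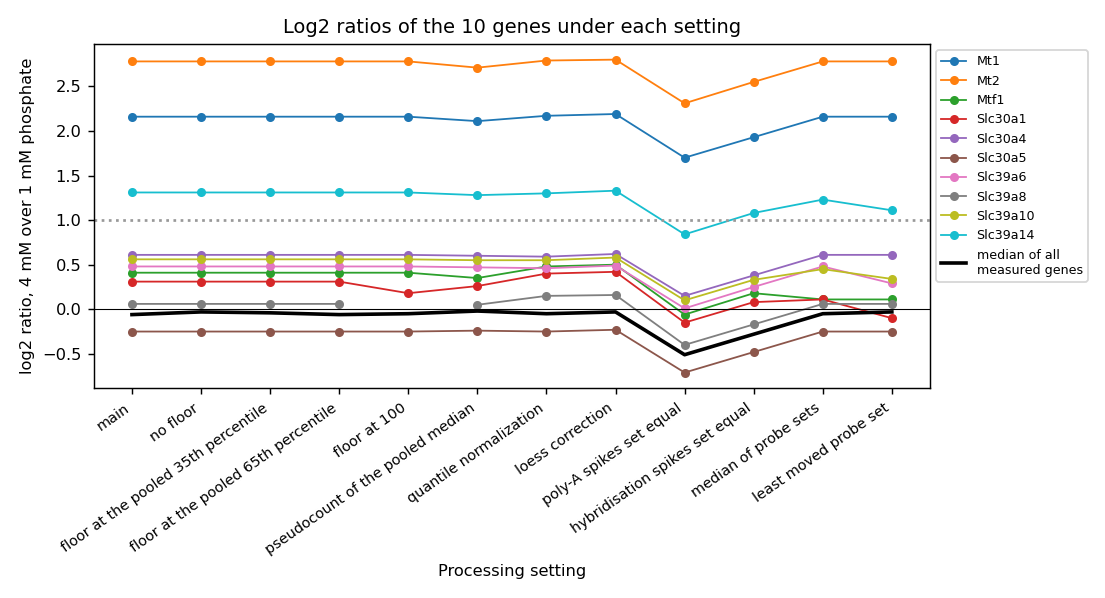
Log2 ratio of the 10 genes, and the median of all measured genes (black), under the setting used in the text ("main") and 11 others, with lines only joining the points of a gene. Mt2 and Mt1 stay above 1 throughout, Slc39a14 drops below 1 (to 0.84) with the poly-A spikes set equal, and Slc39a8 has no value with the floor at 100.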

How the data were processed

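Per the labels' protocols, 100 ng of total RNA from each of the 2 samples was converted to biotinylated cRNA for Affymetrix arrays. The authors deposited intensity values, 1 linear signal per probe set, made with MAS5 in GCOS 1.4, per the submitters' processing notes. The 2% trimmed mean was 200.0 for each array, so a change of total mRNA per cell is hidden. Depth has no counterpart on arrays, and their number limits the precision.

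Of 45037 probe sets other than 64 controls, 34945 named 1 gene, 932 several and 9160 none in the platform annotation. Symbols were checked by Entrez identifier in the RefSeq table of GRCm38.p6, where 34741 matched and 0 changed. Signals were raised to the floor, log2 ratios taken as phosphate minus control, and each gene was read from the probe set brightest on average in log2. A call means 2-fold. No test was run. Calculations used Python 3.11.15, pandas 2.3.3 and statsmodels 0.14.6 and were tested on simulated data.

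The genes named are all members, other zinc family genes, the 2 highest and 2 lowest of each metal list, 5 neighbours per side and 3 nearest genes. Members and lists were chosen with earlier results of these data known. Those named beyond that rule, such as Alpl, Slc39a13 and the cytokine and glucocorticoid genes, were chosen after their values were seen. Other floors, a pseudocount, quantile and loess scaling, spike scaling and other probe set rules were tried as alternatives.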

Additional observations from a re-analysis of the deposited data

Results flagged for a closer look

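Control RNAs lie outside every gene comparison and were brighter with 4 mM phosphate. For poly-A spikes this held for 24 of 24 probe sets, median log2 ratio 0.46. For hybridisation spikes it held for 18 of 18, median 0.23. The ratios of Mt2 (2.78), Mt1 (2.16) and Slc39a14 (1.31) exceeded both spike medians, while those of Mtf1, Slc30a1, Slc39a8 and Slc30a5 (0.41, 0.31, 0.06 and −0.25) were below the poly-A median.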

How the results depend on the processing

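No paired analysis was possible because each group has 1 array. The 3 genes at least 2-fold higher were Mt1, Mt2 and Slc39a14 under 10 of 11 alternatives, and Mt1 and Mt2 alone with the poly-A spikes set equal. No member was 2-fold lower under any of the 11. Over the 9 alternatives of floor and scale, the log2 ratio was 2.31 to 2.80 for Mt2, 1.70 to 2.19 for Mt1 and 0.84 to 1.33 for the brightest probe set of Slc39a14, but 0.41 to 1.33 and 0.07 to 1.21 for its dimmer ones. Of 18 member probe sets, 6 turned sign with the poly-A spikes set equal and 2 with the hybridisation spikes set equal, and 0 of those with a value did so under the other 7 (14 had one with the floor at 100 and 16 with it at the 65th percentile). Over all genes, those past 2-fold were 279 higher and 358 lower in the report, 2126 and 1841 without a floor, 557 and 575 with the floor at the 35th percentile, 183 and 164 at the 65th, 156 and 119 at 100, and 218 and 172 with the pseudocount. The dim probe sets of Mtf1, Slc30a1 and Slc39a8 are limited by the SD of 0.42, and leaving out an array leaves no comparison.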
